A study of Mus musculus with 2 samples.

Results

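The regions described here were 2386 of the 2482 autosomal 1-Mb bins of the mouse genome, on a grid laid from position 0 of chromosomes 1 to 19 in build NCBIM37. A bin was kept when under 20% of it was assembly gap or lay beyond the chromosome end. Of the 96 bins left out, 65 were gap throughout and 57 were among the first 3 bins of a chromosome. Inside the limit, chr11:121000001-122000000 was 15.6% gap, with 3433 IgG and 3712 anti-FLAG tags. At the limit itself, chr5:143000001-144000000 was 20% gap, with 2411 and 3240 tags, and was kept only through rounding in the computation. Just outside it, chr19:6000001-7000000 was 20.02% gap, with 3623 and 5089 tags, and chr16:94000001-95000000 was 22.3% gap, with 3064 and 3341 tags. The tags were those of 2 chromatin immunoprecipitation sequencing libraries, 1 made with normal mouse IgG and 1 with the M2 antibody against the FLAG peptide. Both were made from untreated 3T3 fibroblasts, a line grown from mouse embryo cells, with the genotype Ccnd1-/- and with FLAG-tagged cyclin D1 supplied by the retroviral construct MSCV-FLAG/Cyclin D1. The labels differ on the cells: the extraction protocol has transduced 3T3 cells, and the growth protocol has embryonic fibroblasts (MEFs) with a stable transfection. The labels do not say whether the cells were 1 clone or a mixed population, and tags of DNA do not show a cell type, so the fibroblast label was not checked. There was 1 library per antibody, so no difference had a replicate check, no test between antibodies was made, and all intervals are exact Poisson intervals that cover counting error only.

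Mouse embryo fibroblasts that are passaged until they grow without limit usually become aneuploid, and a DNA library from such cells holds more tags where the cells have more copies of a chromosome. In immunoprecipitated chromatin the tags also follow how readily DNA is sheared, recovered and amplified, and open, gene-rich chromatin is commonly recovered better than compact chromatin. Tags alone give relative levels: the ploidy of these cells was not measured, and the number of DNA copies and the recovery per copy cannot be told apart within 1 bin.

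The sharpest edges in the data were those of stretches without any tag in either library, and the sequences at 6 such edges are shown because they mark where coverage stopped and resumed. In each, the 36 lower-case bases are the span of the last tag before the stretch or the first tag after it, and the 24 capitals are the adjoining bases of the stretch, read on the plus strand of NCBIM37. The first 2 bound the stretch with most tags expected, on chromosome 7, the next 2 that on chromosome 8, and the last 2 that on chromosome 12.
chr7:26863241-26863300: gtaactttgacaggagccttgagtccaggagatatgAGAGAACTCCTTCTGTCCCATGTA
chr7:26983819-26983878: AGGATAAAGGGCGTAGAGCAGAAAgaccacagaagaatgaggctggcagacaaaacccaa
chr8:15424092-15424151: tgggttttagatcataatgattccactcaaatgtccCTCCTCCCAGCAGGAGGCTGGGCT
chr8:15482385-15482444: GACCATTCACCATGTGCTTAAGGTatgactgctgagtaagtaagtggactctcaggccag
chr12:116264784-116264843: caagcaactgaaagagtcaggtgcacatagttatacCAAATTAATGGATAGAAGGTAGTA
chr12:116300536-116300595: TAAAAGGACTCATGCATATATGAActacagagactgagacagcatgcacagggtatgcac

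The chromosome 7 stretch, chr7:26863277-26983842, was 120566 bp long and held 0 tags where 558 were expected from both libraries together. Its left edge lay within the annotated gene Cyp2b13 and its right edge within Cyp2b9, both outside annotated exons. These genes encode cytochrome P450 enzymes of the liver. The 10 kb to its left held 2 IgG and 0 anti-FLAG tags, and the 10 kb to its right held 30 and 24, so coverage returned at the right edge and stayed low at the left one. A further tag-free stretch lay just to the left, at chr7:26791426-26851255, with 175 tags expected.

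The chromosome 8 stretch, chr8:15424128-15482408, held 0 tags over 58281 bp, with 445 expected. Both edges were intergenic in the annotation, and the start of Myom2, a gene of the muscle sarcomere, lay 395615 bp away. The flanking 10 kb held 19 IgG and 13 anti-FLAG tags on the left and 43 and 44 on the right. The chromosome 12 stretch, chr12:116264820-116300559, was 35740 bp long and empty against 277 expected tags. It overlapped no protein-coding gene, and no gene was annotated at its edges. The start of Ighv1-73, a heavy-chain variable segment, lay 746405 bp away. The flanks of the stretch held 50 IgG and 34 anti-FLAG tags on the left and 117 and 90 on the right. Both libraries were thus covered on either side of these 2 stretches and empty within them.

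The other stretches among the 5 with most tags expected lay close together on chromosome 17, at chr17:40086552-40124943 with 281 expected tags and chr17:40170267-40223795 with 280. They belonged to a run of 10 tag-free stretches over chr17:40056413-40318292. The whole run held 5 IgG tags where 708 were expected and 9 anti-FLAG tags where 599 were expected, so both libraries lacked nearly all tags there. No gene was annotated at the edges of the 2 stretches, and the start of Pgk2, a phosphoglycerate kinase of the testis, lay 239806 and 148523 bp away.

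In all, 297 stretches without a tag in either library had 25 or more tags expected, together 4450014 bp, and 295 of them touched bins described here. They lay on 18 autosomes, with 52 on chromosome 12 and 41 on chromosome 7. In 116 of them at least 80% of positions were start sites of a 36-mer that occurs once in the genome, and 63 overlapped a protein-coding gene. The stretch of Ccnd1, the gene deleted in these cells, served as the check of the measure. Inside Ccnd1, which lies at the end of chromosome 7 in no kept bin, chr7:152120069-152123316 held 0 tags with 21.4 expected and chr7:152123996-152125552 held 0 with 8.99 expected. Both had fewer expected tags than the limit of 25, so neither could be called on its own at this depth.

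The libraries were of like depth, with 9312346 IgG and 9259840 anti-FLAG tags, of which 8924859 and 8920625 were autosomal. The median bin held 3646.5 IgG tags, with a range of 7 to 9893, and 3692.5 anti-FLAG tags, with a range of 5 to 10898. Counting error at the median was 1.66% and 1.65% (relative SD). Between neighbouring bins the corrected values differed by more than that, with a log2 SD of 0.18 in IgG and 0.22 in anti-FLAG from successive differences.

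Corrected values take the tags of a bin over the tags expected from its unique 36-mer starts and the GC content of its 1-kb windows, with the median bin set to 1. The correction mattered most for the agreement of the libraries. Without it, 90% of bins had an anti-FLAG over IgG ratio between 0.771 and 1.24, and with it between 0.912 and 1.08. Pearson's r between the libraries' log2 values over the 2386 bins was 0.955 before and 0.984 after correction, as a description only, since the bins share the cells, the genome sequence and the correction. The GC content of a window set different rates in the libraries: at 35 to 36% GC there were 4.76 IgG and 3.83 anti-FLAG tags per 1000 unique starts, and at 50 to 51% GC 3.17 and 4.24.

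**Figure D1:**
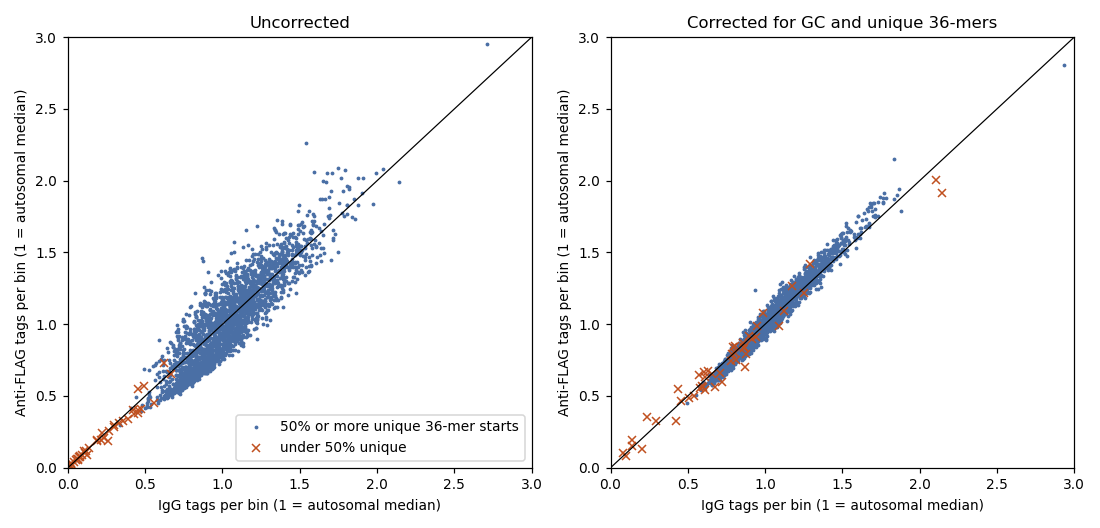
Tags per 1-Mb bin in the anti-FLAG library (vertical) against the IgG library (horizontal), each over its autosomal median, before (left) and after (right) correction. Each point is 1 bin, crosses mark the 47 bins with under 50% unique 36-mer starts, and the line is equality. The cloud narrows around equality after correction.

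A bin was called gained when both libraries were at least 15% above the autosomal median and lost when both were at least 15% below it. These are names of levels, not of copy numbers. The call was met by 599 bins for gain (25.1% of members) and by 590 for loss (24.7%), and 0 bins were gained in 1 library and lost in the other. Corrected IgG values ran from 0.693 at the lowest 5% of bins to 1.44 at the highest 5%, and anti-FLAG values from 0.647 to 1.5003. Of the 47 bins with under 50% unique starts, 30 were lost and 5 gained. Of the 599 gained and 590 lost bins, 503 and 470 kept their call on uncorrected tags, and 7 bins had the opposite call.

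Bins that differed at least 1.2-fold between the libraries were few, 5 higher in anti-FLAG (0.21% of members) and 6 lower (0.251%). Of these 11, 10 had under 50% unique starts, with few tags to compare. The exception was chr17:39000001-40000000, at 0.935 in IgG (95% interval 0.901 to 0.970) and 1.24 in anti-FLAG (1.19 to 1.28), so the intervals did not overlap. Within it, chr17:39980001-39990000, at the gene AY036118, held 676 IgG and 1541 anti-FLAG tags, 23.6% and 47.8% of the bin's tags. Without those 10 kb the bin stood at 0.715 and 0.646, low in both libraries.

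The level of a bin moved with its genes. Among the 2339 bins with at least 50% unique starts, the 256 without a protein-coding gene had medians of 0.802 in IgG and 0.765 in anti-FLAG. The 752 bins with 1 to 4 genes had 0.937 and 0.914, and the 585 with 5 to 9 genes had 1.07 and 1.08. Beyond that the medians levelled off, at 1.06 and 1.08 for 10 to 19 genes and 1.06 and 1.11 for 20 or more. Lost bins made up 59.8% of the bins without a gene and 12.3% of those with 20 or more, against 24.7% of all members. GC content rose along the same classes, from a median of 37.4% in bins without a gene to 46.2% in those with 20 or more, so gene number and residual GC effects were not separated.

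**Figure D2:**
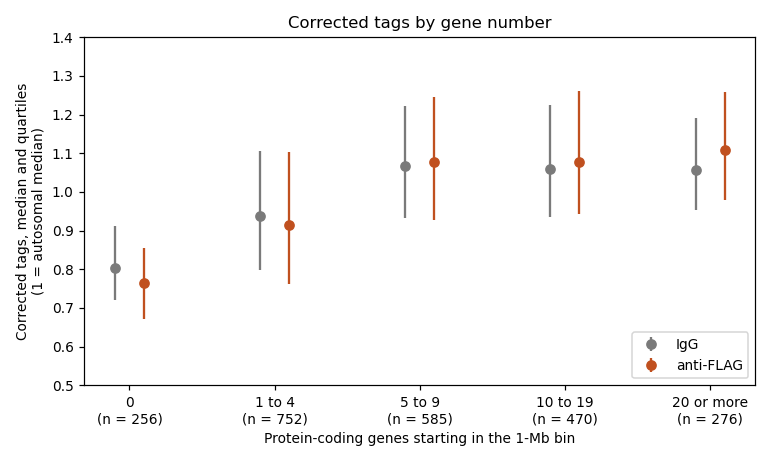
Corrected tags (1 = autosomal median) by the number of protein-coding genes that start in the bin, for bins with at least 50% unique 36-mer starts. Points are medians and bars the quartiles over bins, grey for IgG and orange for anti-FLAG, and the axis starts at 0.5. Bins without a gene sit lowest, at medians of 0.802 and 0.765.

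Whole chromosomes stood apart in both libraries. Chromosome 19 was the highest autosome, with a median over its 57 bins of 1.53 in IgG (quartiles 1.31 to 1.67) and 1.56 in anti-FLAG (1.29 to 1.75), and 49 of its bins were gained. Chromosome 8 came next, at 1.32 (1.09 to 1.46) and 1.30 (1.03 to 1.49), with 78 of 124 bins gained. Neither chromosome had a lost bin, nor did chromosome 10, where 64 of 127 bins were gained. Chromosomes 15 (1.18 and 1.205), 10 (1.16 and 1.18) and 12 (1.153 and 1.149) followed, and their quartile ranges overlapped one another.

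At the low end stood chromosome 7, with medians of 0.833 in both libraries and 70 of 141 bins lost, and chromosome 4, at 0.837 in IgG and 0.849 in anti-FLAG, with 74 of 152 lost. Chromosome 14, at 0.856 and 0.847, and chromosome 3, at 0.861 in both, were close to them, with quartile ranges that overlapped theirs. By the rule for bins, applied to the medians, 4 chromosomes were gained (8, 10, 15 and 19) and 2 lost (4 and 7). Of these, chromosome 7 carried a mean of 14.6 genes per bin and chromosome 4 carried 8.68, against 8.89 over all members. The genes of chromosome 7 were unevenly spread: in chr7:35000001-72000000 the mean was 10.3 and the median 4. The part of gene number in the levels of these chromosomes was not tested.

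To compare chromosomes where genes play less part, the same correction was run on 200-kb bins over 200 kb from any protein-coding gene and with at least 70% unique starts, a comparison chosen after the values above were seen. There were 1566 such bins of 11901. Their chromosome medians fell into a lower, a middle and an upper range in each library. The lower range held 11 autosomes (3, 4, 5, 7, 9, 11, 13, 14, 16, 17 and 18), at 0.696 to 0.781 in IgG and 0.681 to 0.754 in anti-FLAG. The middle range held 6 (1, 2, 6, 10, 12 and 15), at 0.889 to 0.968 and 0.840 to 0.909. The upper range held chromosomes 8 and 19, both at 1.102 in IgG and at 1.04 and 1.05 in anti-FLAG.

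The ranges were set apart by the largest gaps between neighbouring medians. Chromosomes 12 and 8 differed by 0.134 in IgG and 0.128 in anti-FLAG, and chromosomes 17 and 1 by 0.107 and 0.0862, while the next gap was 0.0296 in IgG and 0.0437 in anti-FLAG. Relative to chromosome 3, the lower range lay at 0.969 to 1.09 in IgG, the middle range at 1.24 to 1.35 and the upper range at 1.53 to 1.54. In anti-FLAG the same ranges were 0.973 to 1.08, 1.2 to 1.30 and 1.48 to 1.497. In the other 200-kb bins the IgG medians relative to chromosome 3 were 0.939 to 1.11, 1.22 to 1.33 and 1.43 to 1.72 for the same sets of chromosomes. The quartile ranges of single chromosomes overlapped between the ranges, so a single gene-poor bin did not place its chromosome.

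**Figure D3:**
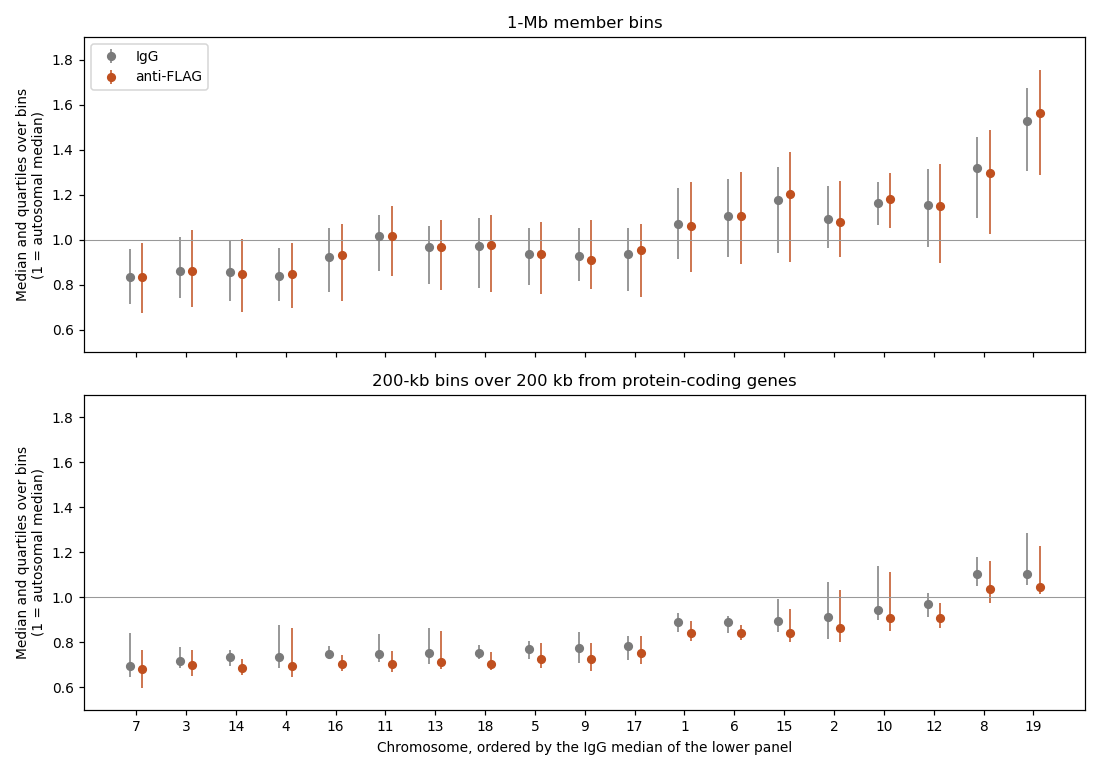
Corrected tags by autosome (1 = autosomal median), over 1-Mb bins (top) and over 200-kb bins far from protein-coding genes (bottom). Points are medians and bars the quartiles over bins, grey for IgG and orange for anti-FLAG, and the axis starts at 0.5. In the lower panel the medians of 11 chromosomes lie under 0.79, those of 6 between 0.84 and 0.97, and those of chromosomes 8 and 19 above 1.03.

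Partitioning of the bins gave 46 segments with 27 breakpoints that both libraries placed within 1 bin and in the same direction, 24 of them at the same bin boundary. The IgG library alone had 32 boundaries, the anti-FLAG library 35 and their mean profile 33. On 9 autosomes no shared breakpoint was found. There were 9 gained segments, with 559 bins, and 13 lost ones, with 373 bins. On uncorrected tags the split was 5 gained to 23 lost.

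Gained segments covered the whole of chromosomes 8, 10 and 19 and parts of chromosomes 1, 12 and 15. The part farthest above the median was chr12:70000001-89000000, 19 bins at medians of 1.44 in IgG (quartiles 1.27 to 1.49) and 1.51 in anti-FLAG (1.2525 to 1.60), with 11.5 genes per bin. It holds Fos, an immediate early transcription factor gene. Chromosome 15 had 2 gained segments, chr15:3000001-13000000 at 1.27 and 1.33 and chr15:25000001-103000000 at 1.21 and 1.22, on either side of 12 bins at 0.861 and 0.798 with 0.5 genes per bin. Chromosome 1 was alike, with chr1:33000001-96000000 at 1.17 and 1.17 and chr1:127000001-197000000 at 1.17 and 1.21 around 31 bins at 0.870 and 0.798 with 2.03 genes per bin. On these 2 chromosomes the high segments lay beside a lower one that held fewer genes.

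Among the 13 lost segments, 5 had a median of under 50% unique starts. The lowest 4 segments were of this kind. The bins of chr7:21000001-24000000, which hold Vmn1r vomeronasal receptor genes, held 38 IgG and 44 anti-FLAG tags in all, at medians of 0.100 and 0.105 with 2.29% unique starts. The segments chr12:22000001-25000000 (0.238 and 0.352), chr14:3000001-6000000 (0.455 and 0.464) and chr7:32000001-35000000 (0.538 and 0.502) had 6.86%, 2.24% and 33.3% unique starts. The fifth, chr12:18000001-22000000 (0.725 and 0.719), had 26.5%. The low share of unique starts moved with these low levels, and its part in them was not tested.

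The lost segments with mostly unique starts were shallower. The lowest by the library nearer to 1 was chr7:35000001-72000000, 29 bins at 0.736 in IgG (quartiles 0.672 to 0.836) and 0.709 in anti-FLAG (0.640 to 0.818), which holds Ccne1, the gene of cyclin E1. Others were chr3:3000001-49000000 at 0.740 and 0.703, chr14:80000001-125000000 at 0.756 and 0.697, chr18:13000001-31000000 at 0.764 and 0.737 and chr13:56000001-90000000 at 0.778 and 0.741. Chromosome 4 was lost as a whole, at 0.837 and 0.849, close to the limit of 0.85.

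**Figure D4:**
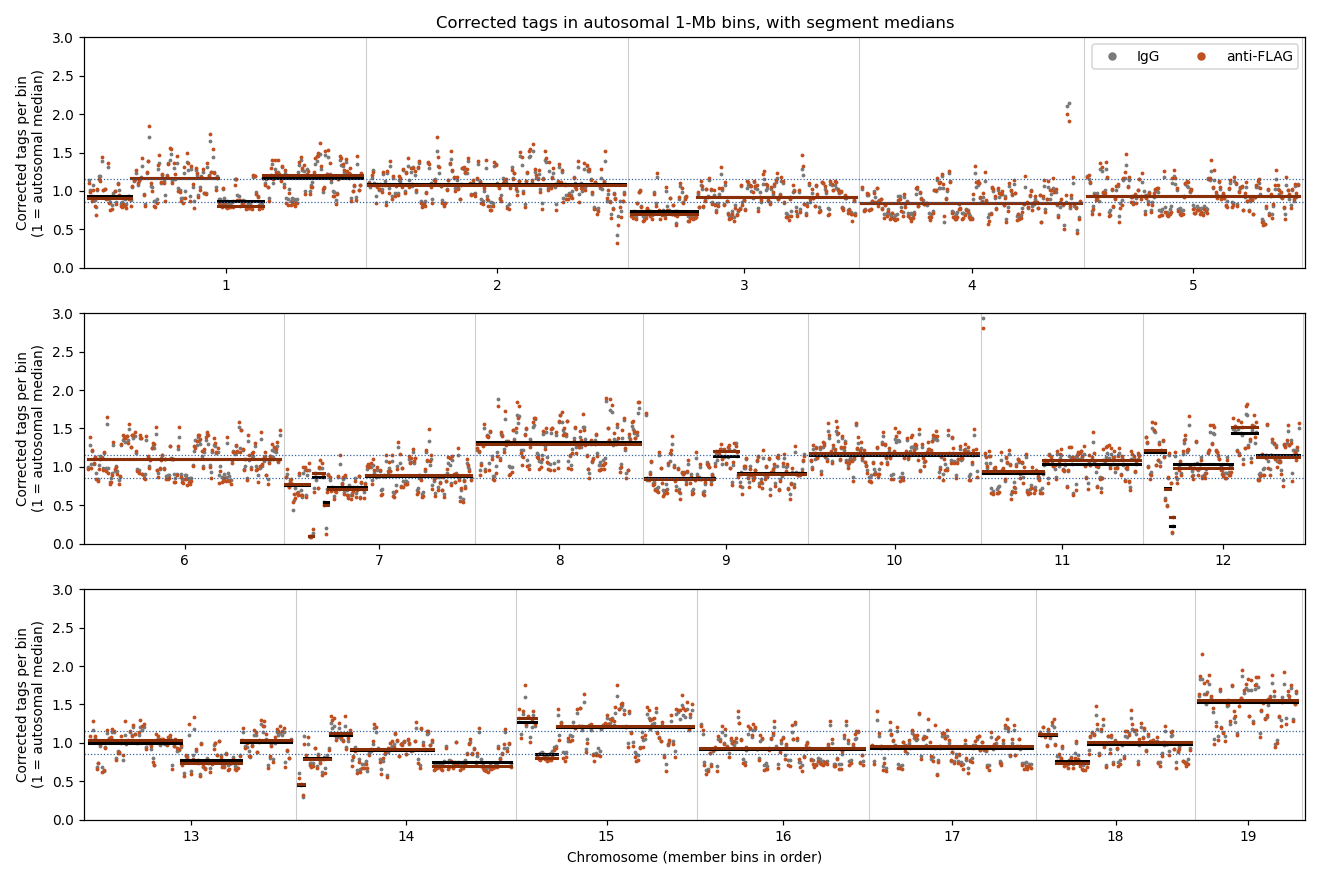
Corrected tags in the 2386 bins (points, grey for IgG and orange for anti-FLAG; 1 = autosomal median), in order along each autosome, with segment medians as black (IgG) and brown (anti-FLAG) lines. Dotted lines mark the limits for loss and gain. Chromosomes 8 and 19 lie above the other autosomes for most of their length, and the lowest segments are short.

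Breakpoints of the largest step were mostly edges of DNA with few unique starts. Of the 8 with the largest step, 7 had a side with under 50% unique starts, led by position 24000000 of chromosome 7, where the level rose 8.65-fold in IgG and 8.73-fold in anti-FLAG. The eighth, at position 13000000 of chromosome 15, was a fall to 0.677 times the level on its left in IgG and 0.602 times in anti-FLAG. Over all breakpoints, 19 had at least 50% unique starts on both sides, and in 18 of these the higher side had more genes per bin. The exception was position 33000000 of chromosome 14. Some differences among the 18 were small. Genes per bin were 6.26 and 6.28 on the sides of position 90000000 of chromosome 13, and 10.9 and 11.3 at position 55000000 of chromosome 9.

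These 19 breakpoints were placed alike by the libraries at a finer scale. In 10-kb windows the change points of the libraries lay within 100 kb of each other at 17 of the 19, with a median distance of 20 kb. At the edge of the gained part of chromosome 12 the change fell at 70240000 in IgG and 70250000 in anti-FLAG. The 500 kb to its left stood at 1.03 in both libraries and the 500 kb to its right at 1.66 in IgG and 1.82 in anti-FLAG. The chromosome 14 breakpoint near 21 Mb fell at 21310000 in both libraries, where the level rose from 1.01 to 1.37 in IgG and from 1.01 to 1.51 in anti-FLAG. At position 55000000 of chromosome 9 the change points lay 1190 kb apart, the widest of the 19, so that edge was not placed alike.

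**Figure D5:**
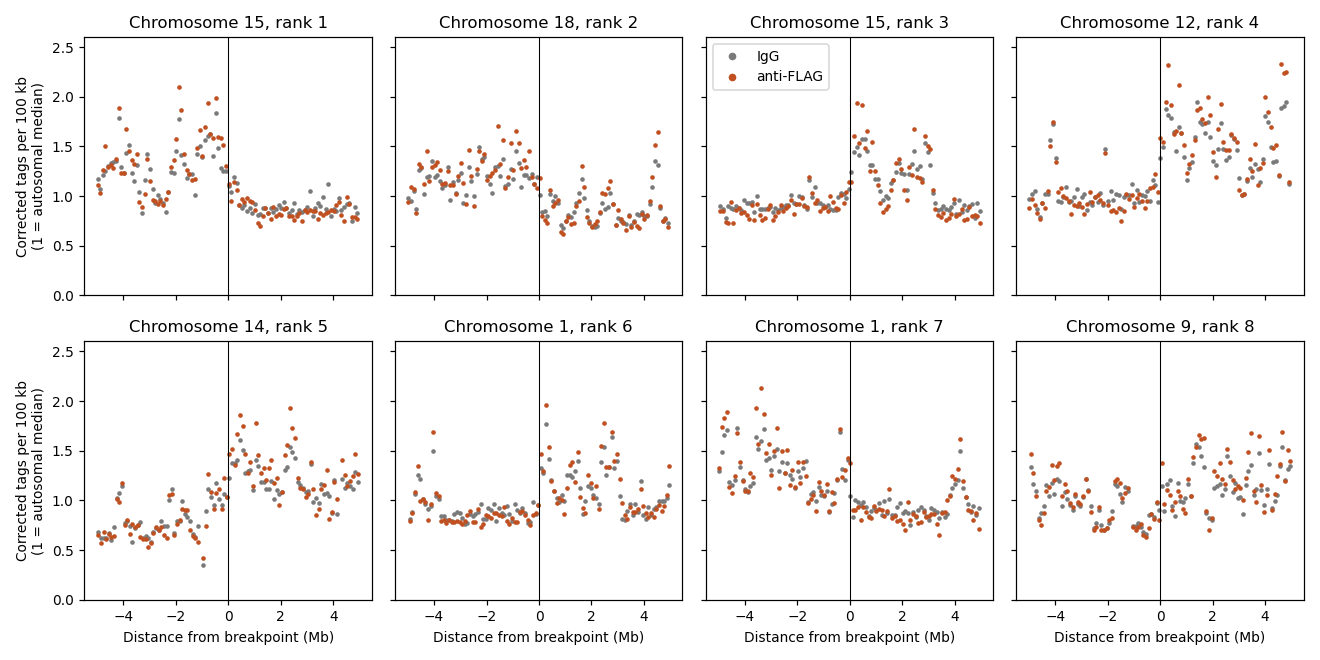
Corrected tags per 100 kb (1 = autosomal median) within 5 Mb of the 8 breakpoints of largest step with at least 50% unique 36-mer starts on both sides, by distance from the IgG change point (vertical line), grey for IgG and orange for anti-FLAG. The lower side is flattest in the chromosome 15 panels and holds peaks in the others, and the higher side alternates between peaks and values close to the lower side.

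Steps could be compared with gene-poor DNA at 11 of the 19 breakpoints, those with at least 5 gene-poor 200-kb bins in the segments on both sides, again a comparison chosen after the values were seen. At 9 of these the gene-poor medians changed by under 15% in 1 or both libraries, with right over left ratios of 0.933 to 1.19 in IgG and 0.943 to 1.148 in anti-FLAG. At position 25000000 of chromosome 15, for instance, the bins rose 1.41-fold in IgG and 1.53-fold in anti-FLAG, and the gene-poor bins rose 1.05-fold and 1.06-fold. At position 127000000 of chromosome 1 the corresponding values were 1.35 and 1.51 for the bins and 1.09 and 1.08 for gene-poor DNA. At position 72000000 of chromosome 7 the step in gene-poor DNA was close to that of the bins in IgG, with 1.203 and 1.256 for the bins and 1.195 and 1.148 for gene-poor DNA.

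At the other 2 breakpoints the gene-poor medians changed with the bins, but over only part of the segment on the right. At position 90000000 of chromosome 13, 28 gene-poor bins on the left had a median of 0.733 in IgG (range 0.617 to 0.852) and 10 on the right 1.101 (0.683 to 1.36), and anti-FLAG had 0.703 (0.637 to 0.791) and 1.16 (0.679 to 1.47). At position 49000000 of chromosome 11, 54 bins on the left had a median of 0.738 in IgG and 0.695 in anti-FLAG, and 13 on the right 0.968 and 1.01. The ranges of the sides overlapped at both places in both libraries. When every bin was divided by the median of its gene-number class, 12 shared breakpoints were found, and 10 of the 27 were kept. Of the 19 with at least 50% unique starts on both sides, only 2 were kept. They were position 90000000 of chromosome 13 and position 21000000 of chromosome 14, and that at 49000000 of chromosome 11 was not kept. Every other kept breakpoint had a side with under 50% unique starts.

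The highest single bin was chr11:3000001-4000000, at the start of the assembled sequence of chromosome 11, with 9893 IgG and 10898 anti-FLAG tags and values of 2.94 (95% interval 2.88 to 2.99) and 2.80 (2.75 to 2.86). The excess lay in its first 100 kb, at 21.7 in IgG and 21.3 in anti-FLAG, where the gene Sfi1, which encodes a centrosomal protein, is annotated. The next 100 kb stood at 1.246 and 1.45. The following 2 bins in rank, chr4:145000001-146000000 (2.11 and 2.00) and chr4:146000001-147000000 (2.15 and 1.91), had 18.4% and 21.3% unique starts. Uncorrected, they were below the median, at 0.474 and 0.411 and at 0.556 and 0.451, so their direction rested on the correction for unique starts.

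The other bins among the 5 highest had over 90% unique starts. The bin chr19:29000001-30000000, which holds Jak2 (a cytokine receptor kinase) and Cd274 (an immune checkpoint ligand), stood at 1.87 in IgG (1.82 to 1.91) and 1.94 in anti-FLAG (1.90 to 1.99). The bin chr8:105000001-106000000, which holds Cdh11, a cadherin of mesenchymal cells, stood at 1.85 (1.81 to 1.89) and 1.90 (1.86 to 1.94). Its fullest 10 kb held 1.254% and 1.96% of its tags, so the level was spread over the bin. Both lay on the 2 highest chromosomes.

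The 5 lowest bins had under 9% unique starts and between 7 and 79 tags a library, 4 of them on chromosome 7 and 1 on chromosome 12. The lowest, chr7:22000001-23000000, held 9 IgG and 7 anti-FLAG tags, at 0.100 (0.0458 to 0.190) and 0.0833 (0.0335 to 0.172). Among bins with at least 50% unique starts, a limit set after the values were seen, the lowest was chr4:152000001-153000000, with 95.2% unique starts, 1597 IgG and 1824 anti-FLAG tags and values of 0.498 (0.474 to 0.523) and 0.452 (0.432 to 0.473). Next came chr4:143000001-144000000 at 0.555 and 0.510 and chr5:128000001-129000000 at 0.572 and 0.566. No bin with mostly unique starts was near 0.

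A list of 59 growth and checkpoint genes was read against the bins, and all 59 were matched in the annotation. Their segments were gained for 11, lost for 9 and neither for 38, and Ccnd1 had no kept bin. By their own bins, 20 were gained, 6 lost and 32 neither, where 25.1% and 24.7% of all members were gained and lost. That background was not matched for gene number. Among bins with mostly unique starts, 32.8% of those with 5 to 9 genes were gained and 13.3% lost. For 10 to 19 genes the shares were 32.8% and 11.3%, and for 20 or more 33.0% and 12.3%. Bins with 1 to 4 genes had 18.6% and 32.2%. Whether the list differed from bins of like gene number was not tested. No gene of the list was without tags: counted over the gene and 10 kb on either side, the lowest values were 0.746 in IgG and 0.580 in anti-FLAG, both at Trp73, a relative of Trp53. These counts include the flanks and do not show that each gene itself was present.

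The listed inhibitors of the Cdk4 family (Cdkn2a, Cdkn2b and Cdkn2c) lay in the lost segment of chromosome 4, but not in lost bins. Cdkn2a, whose products restrain Cdk4 and Cdk6 and stabilise Trp53, and which is deleted in some 3T3 lines, lies at chr4:88920377-88940557 on that chromosome. Over the gene and 10 kb on either side there were 199 IgG and 220 anti-FLAG tags, at 1.252 (95% interval 1.08 to 1.44) and 1.36 (1.18 to 1.55), so DNA of the gene or its flanks was present. Cdkn2b, the neighbouring inhibitor gene, had 97 and 130 tags, at 1.16 and 1.55. Their shared bin stood at 1.13 and 1.2465. Cdkn2c, another inhibitor of this family on the same chromosome, had 143 and 173 tags and a bin at 0.973 and 0.977. Flanking DNA can carry such counts, so they do not show that a gene itself was present. For Ccnd1, which is deleted in these cells, the same count gave 77 IgG and 167 anti-FLAG tags, at 0.849 and 1.34.

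The listed cyclins and their kinases lay at unlike levels. Cdk4 and Cdk2, partners of D-type and E-type cyclins, lie on chromosome 10, in bins at 1.16 and 1.22 and at 1.16 and 1.23 in IgG and anti-FLAG. Ccne1 lay in a lost segment and a lost bin, at 0.736 and 0.712. Ccnd2 and Ccnd3, the D-type cyclins other than the deleted one, lay in segments that were neither gained nor lost, in bins at 1.14 and 1.18 and at 0.993 and 1.04. Of the pocket proteins that these kinases phosphorylate, Rbl2 lay on chromosome 8 in a bin at 1.30 and 1.35, Rb1 in a gained bin at 1.18 and 1.197 within a segment at 0.909 and 0.921, and Rbl1 in a bin at 1.155 and 1.147 that missed the call in anti-FLAG.

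Myc, the growth-promoting transcription factor gene, lay in a bin at 1.46 in IgG and 1.51 in anti-FLAG. Its neighbourhood chr15:60200001-63400000 had a median of 1.502 and 1.54 over 16 bins of 200 kb, where the lowest bin stood at 1.27 and 1.254. Of these, 10 were gene-poor, with medians of 1.499 and 1.53, against 0.873 and 0.828 in the 51 gene-poor bins of chr15:13400001-50000000 and 0.876 and 0.812 in the 17 of chr15:65000001-88200000. The bounds of these stretches came from partitioning the gene-poor values themselves, so a contrast between neighbouring stretches was built in. Between the first 2 in position, the 4 gene-poor bins of chr15:50000001-56200000 had medians of 1.14 and 1.06. As a description, the neighbourhood was high in DNA far from coding genes, with lower gene-poor DNA on either side. Its relatives did not share this level, with Mycn in a bin at 1.08 and 1.09 and Mycl1 in one at 0.832 and 0.861.

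Genes of growth signalling and of Trp53 control lay on both sides of the median. Pik3ca, the catalytic subunit of PI3-kinase, lay in a lost bin at 0.811 and 0.818. Mdm2 and Mdm4, inhibitors of Trp53, lay in gained segments of chromosomes 10 and 1 but in bins at 1.09 and 1.12 and at 1.11 and 1.16, neither of which was called. Stk11 (a kinase that activates AMP-activated kinase) and Apc2 (a relative of the Wnt regulator Apc) shared a gained bin of chromosome 10 at 1.26 and 1.39. Uncorrected, this bin stood at 0.875 in IgG and 1.44 in anti-FLAG, so its call in IgG rested on the correction.

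The partner genes of the transcription factor AP-1 lay at unlike levels. Fos lay in a gained bin and segment, with a bin at 1.54 in IgG and 1.67 in anti-FLAG. Jun lay in the lost segment of chromosome 4, in a bin at 0.993 and 1.02. Of the remaining listed genes in lost segments, Tert, the catalytic subunit of telomerase, lay in a lost bin at 0.760 and 0.726, and Trp73 in one at 0.656 and 0.635.

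Gene families of clustered copies were counted by the bins that held 5 or more members, where 25.1% of all bins were gained and 24.7% lost. This background, too, was not matched for gene number. Olfr, the odorant receptors, had 54 such bins, of which 23 were lost and 8 gained, with medians of 0.868 in IgG and 0.841 in anti-FLAG and a median of 79.9% unique starts. Of the vomeronasal receptor families, 9 of 18 Vmn1r bins were lost and 0 gained, at medians of 0.835 and 0.853, and 9 of 12 Vmn2r bins were lost and 0 gained, at 0.721 and 0.675. Their bins had medians of 72.9% and 67.6% unique starts, and 4 and 3 of them had under 50%. The part of sequence uniqueness in these levels was not tested.

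The other families varied in level. The 4 Hox bins, which hold the homeobox genes of body patterning, had medians of 1.196 in IgG and 1.28 in anti-FLAG, with 2 gained and 0 lost. The 17 bins of Zfp zinc-finger genes stood at 0.988 and 1.00, with 2 gained and 2 lost, and the 6 Krt keratin bins at 1.00 and 1.01, also with 2 gained and 2 lost. The 4 Defb beta-defensin bins stood at 1.2 and 1.23, with 2 gained. The 3 Ighv bins, which hold heavy-chain variable segments, stood at 1.22 and 1.16, with 2 gained and 0 lost. The 4 Igkv bins of the light chain stood at 0.908 and 0.847, with 0 gained and 0 lost. Families with 1 or 2 such bins were Mup (1 of 2 lost, medians 0.758 and 0.782), Skint (1 of 1 lost, 0.704 and 0.697) and Defa, Klra and Pcdh (1 bin each, none called by the rule for bins), and of the 3 Hist1h histone bins 1 was lost and 0 gained.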

How the data were processed

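Per the labels, chromatin was fixed for 15 min and sheared to an average of 300 to 500 bp. The deposited positions are those of 36-base tags, each on its own line, beside a score that is 512 throughout in the deposited files and was not used. Within each library no position was listed more than once per strand. The aligner and the genome build were not given in the sources used here. On NCBIM37, 2 IgG and 3 anti-FLAG tags ran past a chromosome end. Starts were counted from 1, since then over 99.9% of autosomal tags lay on 36-mers that occur once in that build.

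Groups were taken from the antibody in the labels. Members, lists and tests were chosen with earlier results of these data known. Expected tags of a bin were summed over 1-kb windows, as unique 36-mer starts times the library's rate for the window's GC percent, estimated in windows over 2 kb from any transcription start. Segments came from optimal partitioning of log2 values (penalty 3 log N, at least 3 bins, neighbours within 0.2 merged), run on each library and on their mean. Bins were named as the 5 highest and 5 lowest by the library nearer to 1, segments as the 8 called ones farthest from 1, breakpoints as the 8 of largest step, tag-free stretches as the 5 with most expected tags and those in Ccnd1, and listed genes when their segment was called; other regions and genes were named after their values were seen. A listed gene that this rule names is not reported here. Gene names and sequence came from the NCBIM37 genome and its GENCODE annotation. Python 3.11.15, NumPy 2.4.6, SciPy 1.17.1, Numba 0.67.0 and pandas 2.3.3 were used.

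The partitioning was tested on simulated data of 2386 bins with noise of the observed size, drawn independently for each bin and shared by the libraries. With no segment planted, 0 shared breakpoints were found in 10 runs. Such noise has no runs of neighbouring bins that follow gene number, so these runs do not measure how often such runs give breakpoints. Of 190 planted ends, 95.8% were recovered for segments of 10 bins at 1.5 times the level, 27.4% at 0.75 times and 4.74% at 1.25 times; for 20 bins the shares were 96.8%, 77.9% and 22.1%, and for 5 bins 31.6%, 2.11% and 0%. Shallow or short segments can therefore be missed.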

Additional observations from a re-analysis of the deposited data

Results flagged for a closer look

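Tags on mitochondrial DNA, which no comparison above used, were more numerous in the anti-FLAG library than in the IgG control: 4551 against 3363 tags, a ratio of 1.35 after scaling to the autosomal totals (95% exact binomial interval 1.29 to 1.42, counting error only). With 1 library per antibody the ratio has no replicate check.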

How the results depend on the processing

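No paired analysis was possible because each antibody had 1 library. On uncorrected tags there were 5 gained and 23 lost segments and 667 bins that differed between the libraries. With unique starts alone, shared breakpoints were 15 and differing bins 664; with GC alone, lost segments were 25 and breakpoints 47. With under 5% gap, differing bins were 5; with the rule of 500 tags, lost segments were 8 and differing bins 4. In 500-kb bins, gained and lost bins were 1311 and 1243, gained and lost segments 25 and 37, breakpoints 104 and differing bins 36. Calls at 25% above and below the median left 359 gained and 302 lost bins and 4 gained and 7 lost segments. A penalty of 6 log N left 5 gained and 7 lost segments and 7 breakpoints. At 1.1-fold, 161 bins differed. Tag-free stretches were 82 at 50 or more expected tags and 15322 when expected tags came from the mean per base. For settings added after the values were seen, bins with at least 50% unique starts gave 8 lost segments and 1 differing bin, gene-poor 200-kb bins gave 75 breakpoints and 2 called chromosomes (6 in the 1-Mb bins), and division by the gene-number class gave 5 gained segments and 12 breakpoints. The bins at chr4:145000001-146000000 and chr4:146000001-147000000 turned from high to low on uncorrected tags (IgG 0.474 and 0.556, anti-FLAG 0.411 and 0.451) and with GC alone (0.514 and 0.562, 0.483 and 0.496). Single values of named bins, segments and chromosomes were each compared between the main setting and other settings, in each library. Of these comparisons, 315 moved by more than counting error, 121 did not and 8, those of the bins just named, reversed.

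Limits of depth: about 3647 tags a bin give a counting error under 2%, far below the spread between neighbouring bins. Tag-free stretches under about 25 expected tags could not be called. With 1 library per antibody nothing shows how either profile would vary.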

Other observations

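Some gene-poor stretches stood well above the level of gene-poor DNA on their own chromosome in both libraries. They are segments cut by partitioning the gene-poor values themselves, and they are named after their values were seen. On chromosome 8, 4 gene-poor bins of 200 kb at chr8:105600001-106400000 had medians of 1.78 in IgG and 1.80 in anti-FLAG, and 4 at chr8:7600001-8400000 had 1.60 and 1.67, where the chromosome's gene-poor medians were 1.102 and 1.04. On chromosome 2, 4 bins at chr2:108400001-117600000 had 1.72 and 1.80, against 0.914 and 0.864. On chromosome 10, 6 bins at chr10:16000001-17200000 had 1.53 and 1.64, against 0.944 and 0.908. By contrast, the 70 gene-poor bins of chromosome 6 formed 1 segment, with medians of 0.890 and 0.843 and quartiles of 0.840 to 0.918 and 0.810 to 0.878.

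The X chromosome was outside the autosomal comparisons. Its 163 bins under the same gap limit had medians of 0.705 in IgG (quartiles 0.648 to 0.813) and 0.676 in anti-FLAG (0.610 to 0.773). Its 107 gene-poor bins of 200 kb had medians of 0.646 (0.618 to 0.675) and 0.622 (0.590 to 0.647), below the lowest autosomal medians of 0.696 and 0.681.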
